A study of Mus musculus with 2 samples.

Results

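Astrocyte identity genes are genes by which astrocytes, the glia that clear transmitter from synapses and supply neurons, are recognised in cortex. The 10 genes examined here were Gfap, Aqp4, Aldh1l1, Slc1a2, Slc1a3, Glul, S100b, Gja1, Apoe and Sox9. A peak was counted for a gene when its centre lay in the gene body or within 10 kb of one of its transcription start sites (TSSs) in GENCODE release M21. Of the 12014 EGR1 peaks in the frontal cortex, 8 met this rule, and they belonged to 3 of the 10 genes. Slc1a2 held 3 of them, Glul held 3 and Sox9 held 2. Gfap, Aqp4, Aldh1l1, Slc1a3, S100b, Gja1 and Apoe held 0.

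The peaks come from ChIP-seq: DNA fragments crosslinked to EGR1 were enriched with an antibody and sequenced, and a peak marks where they pile up. Frontal cortices were taken at 6 weeks from male F1 hybrids of 129SvEv mothers and C57BL/6N fathers, and several mice were pooled for each experiment. The 2 labelled samples are the EGR1 ChIP, which merges 2 replicates into 1 peak list, and the input DNA, for which only labels were used here. Each peak has a position on the mouse build mm10 and an irreproducible discovery rate (IDR), with low values for peaks whose strong ranks were shared by the replicates. Peaks were kept at an IDR of 2% or less. There is no read count, so the depth behind each peak is unknown, and no value per replicate, so no spread and no test over samples could be had. The labels give 1 strain cross and name no treatment, and the values below are descriptions of a single merged list. The tissue holds neurons and glia together, without expression values, so the labelled tissue could not be checked by marker levels and the cell type in which a peak arose cannot be told apart.

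EGR1 is a zinc finger factor that is induced by synaptic activity, and its known DNA element is a short GC-rich word. Astrocytes take up glutamate through the transporters encoded by Slc1a2 and Slc1a3, and glutamine synthetase, encoded by Glul, turns it into glutamine. The other members include a transcription factor of the astrocyte lineage (Sox9), an intermediate filament protein (Gfap), the water channel of the endfeet (Aqp4), a gap junction protein (Gja1), a calcium-binding protein (S100b), a folate enzyme (Aldh1l1) and a lipid carrier (Apoe).

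The sequence under each peak was searched on both strands for the 9-base word GCGTGGGCG or GCGGGGGCG. The closest match in each peak is shown in capitals within the mm10 sequence around it, 5′ to 3′ on the strand of the match, because these letters are the nearest thing to an EGR1 word at the 3 genes. The first 2 windows are short because they lie in 5′UTR sequence.
Slc1a2 peak 1: gagtgcgagtGCGGGGGAGtgtgtgcgtg
Slc1a2 peak 2: tgcccgggagGAGGGGGCGttccccacgc
Slc1a2 peak 3: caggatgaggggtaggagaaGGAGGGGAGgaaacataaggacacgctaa
Glul peak 1: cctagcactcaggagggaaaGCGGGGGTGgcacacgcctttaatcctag
Glul peak 2: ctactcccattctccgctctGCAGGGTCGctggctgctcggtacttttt
Glul peak 3: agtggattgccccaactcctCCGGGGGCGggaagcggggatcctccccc
Sox9 peak 1: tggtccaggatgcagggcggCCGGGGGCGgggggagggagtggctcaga
Sox9 peak 2: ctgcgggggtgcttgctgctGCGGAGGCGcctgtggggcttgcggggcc

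None of the 8 peaks held the exact word, against 16.6% of the 11938 peaks on assembled chromosomes (background, percent of peaks). With 1 mismatch allowed, 6 of 8 peaks held it, against 69.8% of all peaks. Positions are counted from 1 at the 5′ end of the word, with the base of the word first and that of the site last. Slc1a2 peak 1 had C8A and Slc1a2 peak 2 had C2A. Glul peak 1 had C8T. Glul peak 3 and Sox9 peak 1 both had G1C, and the 9 letters of their sites are the same. Sox9 peak 2 had G5A. These 6 differences fell at 4 of the 9 positions. Glul peak 2 came no closer than 2 mismatches, G3A and G7T, and shared this number with 28.3% of all peaks. Slc1a2 peak 3 came no closer than 3, C2G, G3A and C8A, as did 1.79% of all peaks. The centres of the sites lay 2 to 22 bp from the peak centres. Several sites tied at the same mismatch number in 6 of the 8 peaks, and the site nearest to the centre is shown. A word match is a description of the letters and not a measured contact.

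Slc1a2 encodes the main glutamate transporter of forebrain astrocytes. Its gene body lies on chromosome 2 from 102658659 to 102790784, on the plus strand. Peak 1 lay at chr2:102658778-102658980, with its centre 220 bp downstream of the gene start, and was within the 5′UTR over its whole width. Its IDR was 1.96e-07, and it ranked 1315 of the 12014 peaks. Peak 2 followed after a gap of 166 bp, at chr2:102659147-102659410, with an IDR of 4.81e-06 and rank 3355. Its centre was 619 bp downstream of the gene start and 3 bp upstream of another annotated Slc1a2 start. Peak 3 lay alone in an intron, 18897 bp downstream of the gene start, at chr2:102677425-102677688. Its centre was 2072 bp downstream of another annotated Slc1a2 start. Its IDR of 0.0175 put it at rank 11733, near the end of the list. The promoter pair thus sat among the most reproducible 27.9% of the peaks, and the intronic peak among the least reproducible.

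Glul encodes glutamine synthetase, and its gene body runs on chromosome 1 from 153899944 to 153909723 on the plus strand. Peak 1 lay upstream, at chr1:153899034-153899283, with its centre 786 bp before the gene start, an IDR of 6.19e-05 and rank 4758. Over all annotated genes the nearest start to it was that of the microRNA gene Mir8114, at 768 bp. Peak 2, at chr1:153899808-153900071, had its centre 5 bp from the Glul start, an IDR of 0.00113 and rank 7310. Peak 3, at chr1:153900658-153900921, had an IDR of 0.00126 and rank 7440. It lay in an intron, 845 bp downstream of the gene start and 183 bp downstream of another Glul start. The peaks were separated by gaps of 524 and 586 bp, so the 3 of them lined the Glul start at nearly even distances. The peak on the start itself was not the most reproducible of them. The upstream peak had the lowest IDR.

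Sox9 encodes a transcription factor that astrocytes keep from their precursors, and its gene body lies on chromosome 11 from 112782224 to 112787760 on the plus strand. Peak 1, at chr11:112783012-112783261, lay in an intron 912 bp downstream of the only annotated TSS, with an IDR of 0.00151 and rank 7666. Peak 2, at chr11:112784943-112785148, lay in coding sequence 2821 bp downstream of the TSS, with an IDR of 3.5e-07 and rank 1859. At Sox9 the peak farther from the TSS was the more reproducible of the pair.

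**Figure D1:**
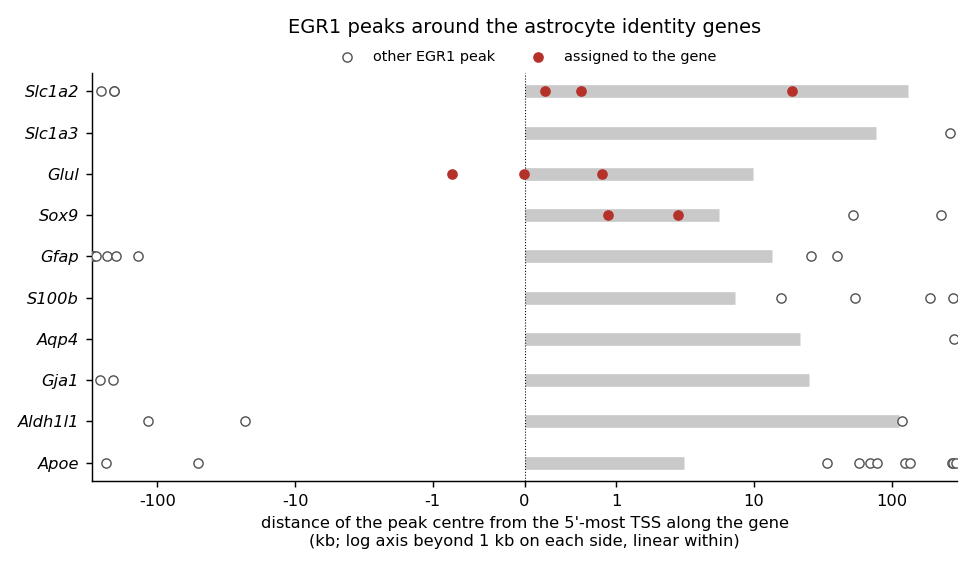
EGR1 peak centres (circles) by their distance in kb from the 5′-most TSS of each of the 10 genes, with the gene bodies as grey bars and peaks up to 300 kb away; the axis is linear within 1 kb of the TSS and logarithmic beyond. The 8 filled circles are the peaks of Slc1a2, Glul and Sox9, whereas Slc1a3, Aqp4 and Gja1 had no peak within 100 kb.

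The count of 3 of 10 genes can be read beside the whole genome, where 39.6% of 21938 protein-coding genes held a peak by the same rule. With only peaks within 2 kb of a TSS, the count was again 3 of 10, against 29.6% of protein-coding genes. With only peaks of an IDR of 0.001 or less, it was 3 of 10, against 29.0%. These shares are near the background. Of the 10 genes, 3 held 2 or more peaks, against 13.7% of protein-coding genes, and 2 held 3 or more, against 4.82%. The counts of several peaks rest on 3 genes only.

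For all 8 peaks the nearest protein-coding TSS was that of the gene itself, and with noncoding genes counted it was so for 7, the exception being Glul peak 1 with Mir8114. Peaks within 2 kb of a TSS made up 6 of the 8, against 63.6% of all peaks that lay within 2 kb of any TSS. The rule admits only peaks in a gene body or within 10 kb of a TSS, so both counts are partly set by it. No such rule was applied to the peaks behind the 63.6%. An IDR of 0.001 or less was reached by 4 of the 8, against 59.5% of all peaks. The median IDR was 0.000597 over the 8 peaks (range 1.96e-07 to 0.0175) and 0.000321 over the whole list. By IDR the peaks at astrocyte genes were thus spread over nearly the whole list, from 10.9% to 97.7% by rank.

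**Figure D2:**
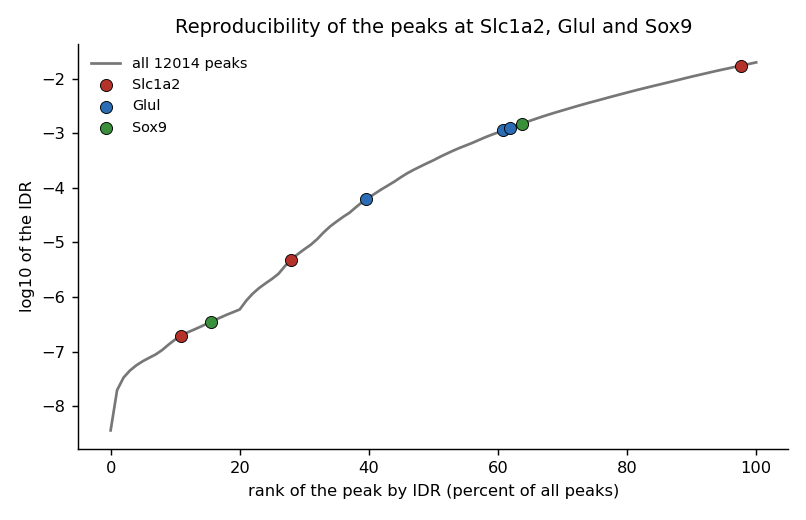
The log10 of the IDR of the 8 peaks at Slc1a2, Glul and Sox9 (coloured points) against their rank as a percent of all 12014 peaks (grey line). The points run from 10.9% (Slc1a2 peak 1) to 97.7% (Slc1a2 peak 3), and Glul peaks 2 and 3 and Sox9 peak 1 lie between 60.8% and 63.8%.

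The CpG content of the peaks was a sequence feature that the rule did not use directly, although the rule favours positions near TSSs. The median observed/expected CpG ratio, which corrects the count of CpG dinucleotides for base content, was 0.706 (range 0.352 to 0.91), against 0.6 over all peaks. Flanking windows as wide as the peak, 5 kb away on both sides, had a median ratio of 0.272, against 0.192 for the flanks of all peaks. The ratio was above that of the flanks for 8 of 8 peaks, as for 85.4% of all peaks (95% Wilson interval 84.8 to 86.0%, counting error only), so being above the flanks was common to most peaks of the list. The member peaks more than 2 kb from a member TSS, Slc1a2 peak 3 and Sox9 peak 2, had a median ratio of 0.553. Median GC content was 65.2% in the 8 peaks and 60.4% in all peaks. The peaks differed among themselves. Slc1a2 peak 1 had the highest ratio, 0.91, with 23 CpGs in 203 bp, and its flanks the lowest, 0.0473. Glul peaks 2 and 3 had ratios of 0.715 and 0.758, and Sox9 peaks 1 and 2 had 0.696 and 0.723. Only Slc1a2 peak 3 (0.383) and Glul peak 1 (0.352) were below the median of all peaks, and Slc1a2 peak 2, at 0.603, was close to it.

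**Figure D3:**
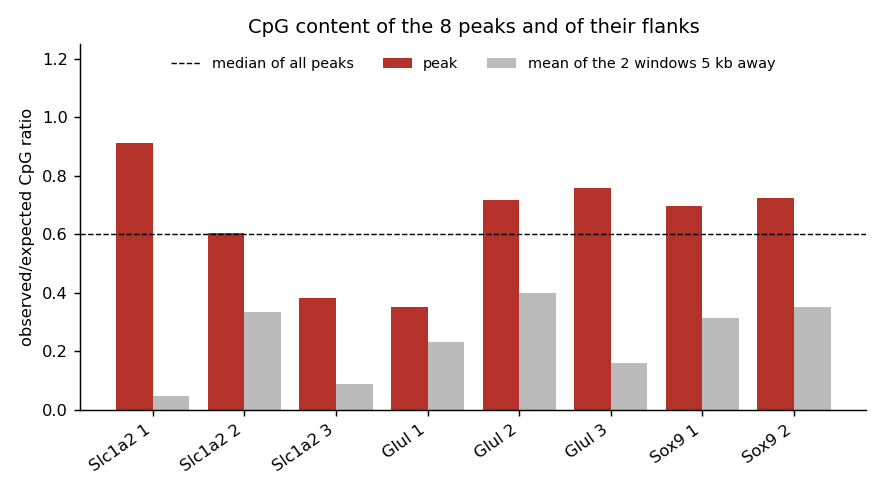
Observed/expected CpG ratio of each of the 8 peaks (red bars) and the mean of the 2 windows 5 kb away (grey bars), with the median of all peaks as a dashed line. Every red bar is higher than its grey bar, by the widest margin for Slc1a2 peak 1 (0.91 against 0.0473) and the narrowest for Glul peak 1 (0.352 against 0.232).

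The contrast between CpG-poor and CpG-dense peaks can be seen in the letters. The plus strand of mm10 is shown for 3 peaks that hold no UTR sequence, with each CpG in capitals.
Slc1a2 peak 3: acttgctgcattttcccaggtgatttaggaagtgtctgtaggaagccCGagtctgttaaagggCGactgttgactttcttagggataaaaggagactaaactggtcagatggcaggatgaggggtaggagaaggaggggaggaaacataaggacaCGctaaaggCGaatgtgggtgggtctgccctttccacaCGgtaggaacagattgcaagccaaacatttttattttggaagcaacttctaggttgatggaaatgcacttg
Glul peak 1: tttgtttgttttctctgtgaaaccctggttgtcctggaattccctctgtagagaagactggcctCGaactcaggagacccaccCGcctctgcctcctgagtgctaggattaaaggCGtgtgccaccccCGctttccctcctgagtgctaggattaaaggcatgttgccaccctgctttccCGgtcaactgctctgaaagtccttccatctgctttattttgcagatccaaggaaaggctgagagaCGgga
Sox9 peak 2: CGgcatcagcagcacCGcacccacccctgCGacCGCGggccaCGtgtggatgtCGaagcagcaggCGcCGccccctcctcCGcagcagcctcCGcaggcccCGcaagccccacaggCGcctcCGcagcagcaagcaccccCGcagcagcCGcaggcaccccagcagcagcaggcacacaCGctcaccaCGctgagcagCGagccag

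The intronic Slc1a2 peak held 5 CpGs in 264 bp, the upstream Glul peak 6 in 250 bp and the coding Sox9 peak 19 in 206 bp. The letters cagcag and ccgcag recur through the last of these. The upstream Glul peak also stood apart in repeat content. Bases marked as repeats in the RefSeq sequence made up 69.6% of it, and its closest word match lay entirely among them. The closest matches shown for Slc1a2 peak 3 and Sox9 peak 1 also lay entirely in bases marked as repeats. In that of Slc1a2 peak 1, 4 bases were so marked. Only 1.57% of all peaks had 50% or more of their bases in repeats, and the median was 7.19%. In the other 7 peaks the share ran from 0% to 33.5%. Reads from repeated sequence can map to more than 1 place, and the part this plays in the peak was not tested. Other short words were searched on both strands as well. GGGCGG, the box bound by SP and KLF factors, was in 5 of 8 peaks and in 55.8% of all peaks, and it can overlap the EGR1 word. CCAAT was in 1 peak, Glul peak 2, and in 24.7% of all peaks. The CRE TGACGTCA (1.30% of all peaks), the AP-1 site TGANTCA (6.48%), the NFI half-site TTGGCA (10.8%) and the SOX core AACAAT (4.29%) were in 0 of the 8.

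The 7 genes without a peak fell into those with an EGR1 peak in the neighbourhood and those far from any. Aldh1l1 had a peak 4405 bp past its 3′ end, with an IDR of 8.11e-06, but the centre of that peak was 117 bp from the start of Slc41a3 and 15258 bp from the nearest Aldh1l1 start. S100b had one 8431 bp past its 3′ end, 15737 bp from its TSS, with an IDR of 0.00221 and 981 bp from the start of Dip2a. The closest peak to Gfap was 22310 bp from its TSSs, with an IDR of 0.00289, and the nearest gene start to it was that of Eftud2. For Apoe it was 32529 bp away, with an IDR of 3.18e-06 and 69 bp from the start of Clptm1. At these 4 genes the nearest peak was closer to the start of another gene, in each case beyond the 3′ end of the astrocyte gene. Neighbouring genes, here and for the further lists, are named after their values were seen.

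Slc1a3, Gja1 and Aqp4 lay in stretches with few peaks. The nearest peak to a TSS was 198843 bp away for Slc1a3, with an IDR of 0.00325 at the start of Nipbl (59 bp). It was 211322 bp away for Gja1, with an IDR of 0.00231. It was 271253 bp away for Aqp4, with an IDR of 1.69e-07. Distances above 100 kb were thus seen for 3 of the 10 genes. That share is near the background, 29.6% of the 21755 protein-coding genes on chromosomes with peaks. The median distance over these 21755 genes was 29832 bp. The glutamate transporters therefore differed, since Slc1a2 held 3 peaks and Slc1a3 held 0, with none within 100 kb of its 5′-most TSS. Around Apoe there were 5 peaks within 100 kb, more than around Slc1a2, Glul or Sox9 with 3 each, and all 5 lay outside the Apoe window. The median over the 21755 protein-coding genes was 1 peak within 100 kb of the 5′-most TSS. A gene without a peak is one for which no peak passed the IDR limit, and at an unknown depth this does not show that EGR1 was absent.

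Promoter CpG content was compared next, as the highest CpG ratio within 500 bp of any basic protein-coding TSS of the gene. A ratio of 0.6, chosen after seeing the values, divided CpG-rich from CpG-poor promoters. The ratios were 0.81 for Slc1a2, 0.804 for Sox9 and 0.697 for Glul, the 3 genes with peaks. Next came Slc1a3 with 0.65, Gja1 with 0.57, Apoe with 0.435 and Gfap with 0.422. The lowest were Aldh1l1 with 0.341, Aqp4 with 0.288 and S100b with 0.169. The 3 genes with a peak had the 3 highest ratios of the 10. Among the 4 members with a CpG-rich promoter, 3 held a peak within 2 kb of a TSS, against 48.7% of 11057 CpG-rich genes. Among the 6 with a CpG-poor promoter, 0 did, against 10.1% of 10783 such genes. Over all genes the share rose from 1.87% at ratios under 0.2 to 52.7% between 0.8 and 1.0, and was 47.7% (95% Wilson interval 43.6 to 51.9%) at 1.0 or more. Slc1a3 was the CpG-rich member without a peak. Such genes are common, since only 45.6% of genes with ratios between 0.6 and 0.8 held a peak within 2 kb. At its 5′-most TSS alone, a measure also chosen after seeing the data, the Slc1a3 ratio was 0.554, below the division.

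**Figure D4:**
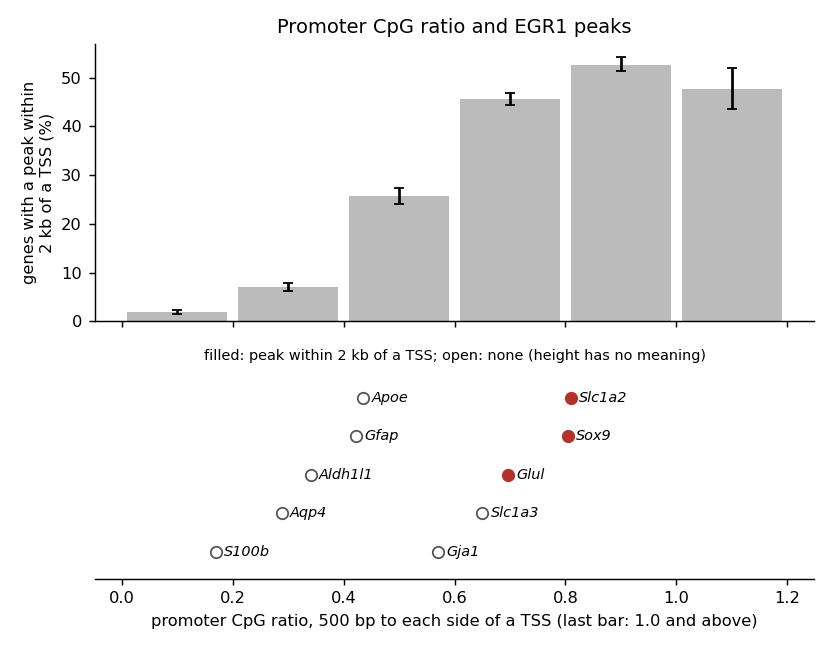
Upper panel, percent of protein-coding genes with an EGR1 peak within 2 kb of a TSS by promoter CpG ratio, with 95% Wilson intervals; lower panel, the ratio of each of the 10 genes, filled where a peak lay within 2 kb. The filled points of Slc1a2, Sox9 and Glul are the 3 to the right, in bins where 45.6% to 52.7% of genes had a peak.

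Promoter sequences from RefSeq (GRCm38.p6, the assembly of mm10) were matched for 8 of the 10 genes, which left Aqp4 and Sox9. For Slc1a2 the matched window, at chr2:102706188-102706437, belongs to an alternative start far inside the gene and not to the starts beside peaks 1 and 2, so the Slc1a2 promoter that holds peaks was not among the windows. The 250 bases before the RefSeq start are shown for 3 of them, 5′ to 3′ on the strand of the gene with each CpG in capitals. Glul is the gene whose matched window overlapped a peak. Slc1a3 is the gene without a peak that was classed as CpG-rich, by another of its starts. Gfap is the classical astrocyte marker. In this order the windows lie at chr1:153899679-153899928 (plus), chr15:8710808-8711057 (minus) and chr11:102897201-102897450 (minus).
Glul promoter: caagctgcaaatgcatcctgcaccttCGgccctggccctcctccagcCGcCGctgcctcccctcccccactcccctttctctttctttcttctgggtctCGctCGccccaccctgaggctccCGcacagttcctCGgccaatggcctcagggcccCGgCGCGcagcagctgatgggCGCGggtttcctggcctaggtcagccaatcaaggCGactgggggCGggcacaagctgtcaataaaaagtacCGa
Slc1a3 promoter: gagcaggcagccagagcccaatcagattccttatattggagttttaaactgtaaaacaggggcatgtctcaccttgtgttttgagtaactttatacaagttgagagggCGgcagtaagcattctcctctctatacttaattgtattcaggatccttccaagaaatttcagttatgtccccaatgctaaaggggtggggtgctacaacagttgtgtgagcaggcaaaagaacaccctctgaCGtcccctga
Gfap promoter: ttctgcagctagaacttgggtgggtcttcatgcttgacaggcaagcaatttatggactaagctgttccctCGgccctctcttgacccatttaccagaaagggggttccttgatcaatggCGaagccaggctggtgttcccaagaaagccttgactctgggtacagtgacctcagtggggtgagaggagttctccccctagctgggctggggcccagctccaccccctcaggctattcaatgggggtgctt

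The Glul stretch held 15 CpGs, and those of Slc1a3 and Gfap held 2 each. The Slc1a3 stretch lies before its 5′-most TSS, where the promoter ratio was 0.554. It is not at the start that gave Slc1a3 its ratio of 0.65. Of the 10 promoter windows of 300 bases matched to the members, 0 held the exact EGR1 word and 1, of Apoe, held it with 1 mismatch, the window at the alternative Slc1a2 start being counted among them. The shares over all 32851 RefSeq promoters were 3.47% and 27.2%. The near word at Apoe was not accompanied by a peak, whereas the Glul window had a peak and no closer match than 2 mismatches.

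Further lists gave the setting of these counts. Of 30 further astrocyte genes, 12 held a peak by the same rule and 8 held one within 2 kb of a TSS. These counts are near the shares over all protein-coding genes, 39.6% and 29.6%. The lowest IDRs were those of Hes5 (6.75e-08), a Notch effector, Ttyh1 (8.19e-08), a membrane protein of glia, and Aldoc (9.75e-08), a glycolytic enzyme. Only the Ttyh1 peak was nearest to the gene's own start, at 635 bp. The peak of Hes5 was nearest to Pank4 and that of Aldoc to Pigs. Hes5 nevertheless had another peak 146 bp from its own TSS. For the identity genes every peak was nearest to the gene itself, as were 17 of 23 peaks of the further astrocyte genes, 4 of 4 of the oligodendrocyte genes below and 18 of 20 of the projection neuron genes.

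Of the 10 oligodendrocyte genes, 3 held a peak, Mbp (1.12e-07), Mobp (9.72e-07) and Cnp (1.07e-06), all genes of myelin proteins. Mog, Mag, Olig1, Olig2, Sox10 and Opalin were among those that held 0. Of the 10 microglia genes, 5 held a peak, the lowest IDRs being those of Aif1 (4.64e-08), P2ry12 (3.97e-05) and Cx3cr1 (0.000394), but 0 of the 6 peaks were nearest to a start of the listed gene and 0 of the 10 genes had a peak within 2 kb. C1qa and C1qb, named after their values were seen, were both counted from the same single peak, with an IDR of 0.0108. Tmem119, Csf1r, Itgam and Trem2 were among the microglia genes that held 0. Of the 10 projection neuron genes, 6 held a peak and 5 held one within 2 kb. Beside the counts of each list, 39.6% of all protein-coding genes held a peak and 29.6% held one within 2 kb. Slc17a7, the vesicular glutamate transporter of cortical projection neurons, had 4 peaks with a lowest IDR of 3.55e-08. That peak was nearest to the start of Gfy and 6671 bp from an Slc17a7 start, and 2 of the 4 were nearest to Slc17a7 itself. Neurod2 had 4 with 4.79e-08 and Bcl11b, a factor of deep-layer neurons, 4 with 4.97e-06. Neurod6, Cux1, Fezf2 and Tbr1 held 0. The 10 projection neuron genes together held 20 peaks and the 10 astrocyte identity genes 8. The difference between these lists was not tested, as genes are not replicates and the lists are short.

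**Figure D5:**
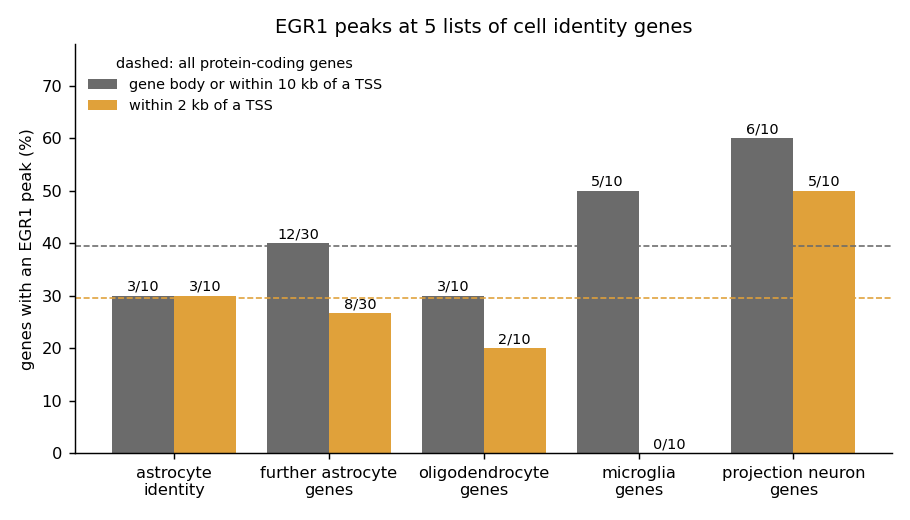
Percent of genes with an EGR1 peak in the gene body or within 10 kb of a TSS (grey) and within 2 kb of a TSS (orange) for 5 lists, with the number of genes above each bar and the shares over all protein-coding genes, 39.6% and 29.6%, as dashed lines. The astrocyte identity genes (3 of 10 by both measures) lie below the first line and next to the second.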

How the data were processed

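EGR1 ChIP-seq and input DNA were prepared from mouse frontal cortices. According to the study's methods and labels, the authors trimmed the reads, mapped them with Bowtie to mm10, called peaks in each replicate with SPP and kept the peaks of the merged replicates at an IDR of 2% or less. The labels name cutadapt 11.2, Bowtie2 2.2.9 and bedtools 2.26.0, without their roles. The deposited values are the start and end of each peak and its IDR, which is read like a q-value. Depth is unknown. Peak widths come from the caller: 64.9% of all peaks were 250 or 264 bp wide.

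The convention for starts is not given in the sources used here; they were taken as BED starts and are printed counted from 1. Peaks were compared with GENCODE M21 and the GRCm38.p6 sequence; 76 peaks on scaffolds were left out of sequence results. Genes named were the 10 members, the genes nearest to their peaks and, in each further list, those with the 3 lowest IDRs and, where 10 or fewer, those without a peak, some of which are not reported here. Other genes are marked in the text as named after their values were seen. The members and lists were chosen with earlier results of these data known. No test was possible, and Wilson intervals cover counting error only. Alternatives varied the IDR limit, the distance, the overlap, the transcripts and the word. Scripts used Python 3.11.15, numpy 2.4.6, pandas 2.3.3, scipy 1.17.1, matplotlib 3.10.9 and samtools 1.23.1, and were tested on simulated data.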

Additional observations from a re-analysis of the deposited data

How the results depend on the processing

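The count of 3 members with a peak was unchanged with IDR limits of 0.01 or 0.001, distances of 2 or 5 kb to a TSS, without the gene body, with any overlap, with protein-coding transcripts alone and with starts counted from 1. A distance of 20 kb raised it to 5, with Aldh1l1 and S100b added. Their peaks were nearest to the starts of Slc41a3 and Dip2a, and no share over all genes at 20 kb stands beside this count. An IDR limit of 0.001 left 4 of the 8 peaks, and 3 of the 6 within 2 kb of a TSS. Allowing 1 mismatch took the member peaks with the EGR1 word from 0 to 6. At an IDR of 0.001, the further astrocyte genes with a peak fell from 12 to 7 and the microglia genes from 5 to 3. Over all protein-coding genes the share fell from 39.6% to 29.0% at that limit. The microglia genes fell to 0 within 2 kb of a TSS, against 29.6% of protein-coding genes. These changes follow from the narrower or wider criteria themselves. The promoter ratio at the 5′-most TSS alone, an alternative chosen after seeing the data, gave 3 CpG-rich members in place of 4 and left the share of CpG-rich genes with a peak at 48.7%. No replicate could be left out, since both replicates are merged in 1 list. No paired analysis was possible because the ChIP and input groups share no replicate values.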

Other observations

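Among the further astrocyte genes, the nuclear factor I genes, which encode transcription factors of the glial lineage, each held an EGR1 peak. They are named after their values were seen, from a list in which 18 of 30 genes held 0 peaks. Of all protein-coding genes, 39.6% held a peak by the same rule. Nfix held 4 peaks with a lowest IDR of 1.31e-05, Nfia held 2 with a lowest IDR of 3.25e-07 and Nfib held 1 with an IDR of 0.011. Their promoter CpG ratios were 1.12, 0.967 and 0.914, in bins where 47.7% to 52.7% of genes had a peak within 2 kb of a TSS. The peaks with the lowest IDR at Nfix and Nfia held the exact EGR1 word, and that of Nfib came no closer than 2 mismatches. The lowest-IDR peak of Nfia was nearest to the start of the neighbouring gene E130114P18Rik, 177 bp from an Nfia start.

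Among the further astrocyte genes, peaks were seen at some promoters of either kind. Of the 15 with a ratio of 0.6 or more, 6 held a peak within 2 kb of a TSS, against 48.7% of all such genes, and Id4, with a ratio of 1.01, had its nearest peak 252267 bp away. Of the 15 below that ratio, 2 held one, against 10.1% of all such genes, Ttyh1 with a ratio of 0.517 and Clu with 0.477. These genes were also named after their values were seen.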
